A study of Mus musculus with 110 samples.

Results

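Thyroid hormone acts on a cell in 3 steps that 6 genes cover here, from the enzymes that activate the hormone through its nuclear receptors to genes that the receptors are known to switch on. The 6 genes were taken by name for these roles from the 56884 genes of each count table: the deiodinases Dio1 and Dio2, the receptors Thra and Thrb, and the lipogenic targets Thrsp and Me1. Their mRNA was read by poly(A) RNA-seq in liver, interscapular brown fat (iBAT), inguinal white fat (iWAT) and epididymal white fat (eWAT) of 28 wild-type male C57BL/6N mice, single-housed and 16 weeks old at the end. Ctrl_RT mice ate a control diet with 0.86% methionine for 7 days at 22 °C, and MetR_RT mice ate a methionine-restricted diet with 0.12% methionine for the same time and at the same temperature. Ctrl_CE and MetR_CE mice had the same diets for 7 days at 22 °C and then an additional 24 h at 4 °C. Their time in the experiment was longer by that day, which cannot be told apart from the cold. Both diets lacked cysteine, so all 4 groups share that deficit, and MetR here means less methionine on a diet without cysteine. Tissues of 1 mouse carry its identifier in the labels, and each library is 1 mouse.

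The main prohormone made by the thyroid, thyroxine, binds the receptors weakly. The deiodinases are selenium-containing enzymes: Dio2 removes an outer-ring iodine inside the cell and so makes the active hormone, triiodothyronine, where it is used, whereas Dio1, the enzyme of liver and kidney, can take iodine from either ring. In brown fat, noradrenaline released in the cold raises Dio2 through cyclic AMP, and the hormone made there adds to thermogenesis. The receptors TRα (Thra) and TRβ (Thrb) sit on DNA with a retinoid X receptor, and TRβ is the main form for hormone action in hepatocytes. Liver Thrsp (Spot 14) and Me1 (malic enzyme, a source of NADPH for fatty acid synthesis) are classical genes raised by thyroid hormone, and both also answer to insulin and carbohydrate.

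RefSeq gives a start site with 250 bases before it for 5 of the 6 genes on GRCm38.p6. The windows of the 2 deiodinases, which differ most in where they are expressed, are printed on the strand of the gene, 5′ to 3′ and ending 1 base before the start, with the letters of a matched motif in capitals. The motifs searched on both strands were the cyclic AMP response element TGACGTCA, the receptor half-site AGGTCA, its direct repeat with a gap of 4 bases (which contains the half-site), the TATA box TATAAA, the CCAAT box CCAAT and the GC box GGGCGG. The Dio2 window is chr12:90739039-90739288 and the Dio1 window chr4:107307169-107307418, both on the minus strand. The RefSeq start of Dio2 lies upstream of the gene's end in GENCODE, given with its values.
Dio2: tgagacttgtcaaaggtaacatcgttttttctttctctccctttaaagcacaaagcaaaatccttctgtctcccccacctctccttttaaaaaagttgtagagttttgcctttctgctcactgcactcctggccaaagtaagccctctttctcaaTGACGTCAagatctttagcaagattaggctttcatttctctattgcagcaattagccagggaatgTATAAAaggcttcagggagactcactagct
Dio1: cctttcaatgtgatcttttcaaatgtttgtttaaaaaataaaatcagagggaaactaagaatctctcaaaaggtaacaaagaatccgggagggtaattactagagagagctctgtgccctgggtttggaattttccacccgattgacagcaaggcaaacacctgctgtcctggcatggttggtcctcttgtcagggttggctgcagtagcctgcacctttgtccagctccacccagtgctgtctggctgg
The Dio2 window holds TGACGTCA, which begins 95 bases before the start, and TATAAA, which begins 30 bases before it. TGACGTCA is in 1.55% and TATAAA in 12.4% of the 32851 RefSeq promoter windows of this length. The Thrsp window (chr7:97417551-97417800, minus strand) holds CCAAT once on each strand, the letters found in 33.8% of windows, and the Me1 window (chr9:86695915-86696164, minus strand) holds GGGCGG at 3 places on the opposite strand, 2 of them abutting, against 32.7% of windows. No letters of the 6 motifs stand in the Dio1 window. Of the other promoters, that of the longer Thrb transcript holds AGGTCA 184 bases before the start, as do 14% of windows. The direct repeat is in none of these windows and in 0.0152% of all. These are matches of letters and say nothing of a factor bound there.

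Levels are given in counts scaled to the library total (CPM) after TMM scaling within a tissue. Differences are log2 fold changes with their standard error (SE) from edgeR's quasi-likelihood test on the counts, with the p-value adjusted by Benjamini-Hochberg over all genes of a comparison. A gene was called changed at an adjusted p under 0.05 and a change of at least 1.5-fold. The p-values measure the spread between mice. Total counts ran from 6987895 to 33444374 per library in liver and from 12672686 to 33372110 in the 3 fat depots. Of the 110 libraries 105 entered the main comparisons. The other 5 were left out, 1 of iBAT Ctrl_CE and 4 of eWAT (3 Ctrl_RT and 1 MetR_RT). These are the libraries that the study treated as outliers, found by matching its mean counts per gene. Groups held 7 mice, except 6 in iBAT Ctrl_RT, iBAT Ctrl_CE, iWAT MetR_CE and eWAT MetR_RT and 4 in eWAT Ctrl_RT. In iBAT the first replicate of MetR_RT, Ctrl_CE and MetR_CE carries a treatment tag of another group, and the title was followed. The library name and the group of the same mouse in the other tissues go with the title.

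The labelled tissues carried their defining markers. Hepatocyte markers summed to 45823 to 83493 CPM in liver, brown adipocyte markers to 8008 to 16924 CPM in iBAT, and adipocyte markers to 12705 CPM or more in every library of iWAT and to 14464 CPM or more in eWAT. Markers of thyroid follicles stayed at or below 1.28 CPM in all libraries. The depots were not pure: 5 skeletal muscle markers summed to as much as 1503 CPM in 1 iBAT library of Ctrl_RT and 18859 CPM in 1 iWAT library of MetR_RT, and 6 markers of epididymis and testis to as much as 1273 CPM in 1 eWAT library of MetR_RT and to 8056 CPM in 1 of the left-out Ctrl_RT libraries. In bulk tissue, fewer cells of a type and less RNA per cell cannot be told apart.

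The cold on the control diet moved members in all 4 tissues. In liver 2 of the 5 members tested rose (Thrsp and Me1), where 7.28% of all genes rose. In iBAT 1 of 5 rose (Dio2; 4.98% of genes), in iWAT 3 of 5 (Dio2, Thrsp and Me1; 5.99%) and in eWAT 2 of 6 (Dio2 and Me1; 0.979%). With MetR at 22 °C, Me1 rose in liver, 1 of 5 members (2.88% of genes), and Dio1 fell, 1 of 5 (4.02%). In iBAT Me1 rose, 1 of 5 (0.535%), and Dio2 fell, 1 of 5 (1.97%). In iWAT Dio2 rose (1 of 5; 4.25%), and no member of 6 was called in eWAT, against 0.115% of genes in either direction. With both treatments against Ctrl_RT, Me1 rose in liver (1 of 5; 6.25% of genes), Dio2 and Me1 in iBAT (2 of 5; 4.36%) and Dio2 in iWAT (1 of 5; 8.05%), with none of 6 called in eWAT (1.3% in either direction). These comparisons share the Ctrl_RT mice. The receptors were called in none of them. The median log2 difference of the members in the cold was 0.98 for iWAT against -0.11 over all genes tested there, 1.08 for eWAT (all genes -0.01), 0.44 for liver (all genes -0.01) and -0.31 for iBAT (all genes -0.08).

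Dio1 (ENSMUSG00000034785, chr4:107291465-107307169, minus strand, GRCm38) was in practice a liver transcript. In Ctrl_RT livers it lay between 135 and 258.8 CPM with a median of 213, and in MetR_RT livers between 32.8 and 141 CPM with a median of 61.4. All but 1 of the MetR_RT livers were below every Ctrl_RT liver. The fall was 2.60-fold, a log2 difference of -1.38 (SE 0.21, adjusted p = 1.75e-05, n = 7 and 7).
In the cold the diet no longer set the groups apart so far. Ctrl_CE livers held 224 to 353 CPM with a median of 264.1, and MetR_CE livers 178 to 229.7 CPM with a median of 207. Every MetR_CE liver was above every MetR_RT liver, by 2.67-fold, a log2 difference of 1.41 (SE 0.21, adjusted p = 1.59e-05; 1 of 5 members, where 2.75% of genes rose). MetR_CE and Ctrl_RT differed by 0.04 on the log2 scale (SE 0.21, adjusted p = 0.92), and Ctrl_CE and Ctrl_RT by 0.44 (SE 0.21, adjusted p = 0.114). MetR_CE was 0.40 below Ctrl_CE (log2 difference -0.40, SE 0.21, adjusted p = 0.228; no member of 5 was called here, against 5.26% of genes). The test of whether diet and cold combine other than additively gave a log2 interaction of 0.98 (SE 0.29, adjusted p = 0.0764), which missed the threshold. It passed with DESeq2 (adjusted p = 0.0222), with edgeR's own expression filter (adjusted p = 0.0497) and with the replicate number as a block (adjusted p = 0.0495). Nothing shows that mice of different groups with the same number are paired, here or for the replicate block below.

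Outside the liver, Dio1 reads were few. In iBAT 3 reads fell in 1 of 26 libraries, that of Ctrl_RT replicate 5 (another mouse than replicate 5 of the other tissues), which also had the highest hepatocyte marker sum of the depot, 49.9 CPM, where no other iBAT library was above 3.70 CPM. In iWAT 6 reads fell in 4 of 27 libraries. Counts of 3 reads, the limit that a count of 0 allows, are worth 0.1 to 0.239 CPM in iBAT and 0.084 to 0.193 CPM in iWAT. In eWAT Dio1 ranged from 0 to 3.93 CPM, with 7 of 24 libraries at 0, and nothing was called. There it went with Foxj1, a gene of ciliated epithelium such as that of the efferent ducts: the library with most Dio1, Ctrl_CE replicate 2, had 115 CPM of Foxj1. Foxj1 was picked from the 6 markers of epididymis and testis after its values were seen, and other markers of that list went otherwise. In MetR_RT against Ctrl_RT, Dio1 (log2 -2.82) and Foxj1 (-2.63) were lower. Crisp1 (6.43), Lcn5 (6.39), Adam7 (4.07) and Prm1 (0.31) were higher, and none of these was called. Of the 5 eWAT libraries with most Dio1, 4 were among the 5 with most Foxj1. The left-out Ctrl_RT libraries held 0, 2.75 and 0.970 CPM of Dio1, and that of MetR_RT 2.69 CPM, beside 0.2035, 109.8, 53.3 and 95.2 CPM of Foxj1. MetR_CE replicate 5, by contrast, had 0.906 CPM of Dio1 with Foxj1 at 0 and 106 CPM of the hepatocyte transcript Alb. The part of either cell type in eWAT Dio1 was not tested.

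Dio2 (ENSMUSG00000007682, chr12:90724552-90738438, minus strand) was the reverse of Dio1 in where it was found. It had 1 read in 28 livers and was highest in iBAT, followed by iWAT and eWAT. In Ctrl_RT its mean was 78.6 ± 31.8 CPM (SD, n = 6) in iBAT, 3.66 ± 1.85 CPM (n = 7) in iWAT and 0.598 ± 0.364 CPM (n = 4) in eWAT. Scaled over all tissues together in 1 edgeR fit, iBAT was 27.6-fold above iWAT (log2 4.78, SE 0.42, adjusted p = 7.2e-17; 33.3% of genes were called between these depots) and iWAT 6.75-fold above eWAT (log2 2.75, SE 0.61, adjusted p = 0.000279; 16% of genes).

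In iBAT the cold separated the groups without overlap. Dio2 ran from 44.8 to 123 CPM in Ctrl_RT with a median of 70.7, and from 201 to 474 CPM in Ctrl_CE with a median of 277.6. The left-out Ctrl_CE library, at 284.9 CPM, was within the range of its group. The rise was 3.81-fold (log2 1.93, SE 0.25, adjusted p = 5.33e-07). Brown adipocyte markers summed to 8008 to 10701 CPM in Ctrl_RT and to 13800.1 to 16115 CPM in Ctrl_CE. Among them Ucp1 alone was called (log2 0.86, SE 0.08, adjusted p = 1.04e-09), with means of 6954 CPM in Ctrl_RT and 12643 CPM in Ctrl_CE. Zic1 (0.57), Cox7a1 (0.14) and Cidea (-0.12) were not called. The part of brown adipocytes in the Dio2 values was not tested.
MetR_RT mice had 20.8 to 53.6 CPM with a median of 47.5, overlapping the lower part of Ctrl_RT. Their fall was 1.97-fold (log2 -0.98, SE 0.24, adjusted p = 0.012). It held without the 3 libraries with conflicting labels (log2 -0.86, adjusted p = 0.0271). It did not hold when they were placed by their tag instead of their title (log2 0.26, adjusted p = 0.80). That placement puts Ctrl_CE replicate 1, at 328 CPM, into MetR_RT, against its library name and mouse. MetR_CE mice had 181 to 333 CPM with a median of 263.5, 6.66-fold above MetR_RT (log2 2.73, SE 0.25, adjusted p = 1.93e-09; 1 of 5 members, where 3.41% of genes rose) and 0.17 log2 units below Ctrl_CE (log2 difference -0.17, SE 0.24, adjusted p = 0.767; none of 5 members called, 1.64% of genes). The interaction of 0.81 (SE 0.34, adjusted p = 0.299) was not called, nor was that of any other member in iBAT, where 0.372% of genes were.

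In iWAT, Dio2 rose under each treatment. Ctrl_RT mice had 1.49 to 6.25 CPM with a median of 2.79. Ctrl_CE mice had 22.3 to 268.8 CPM with a median of 106, and MetR_RT mice 2.08 to 39.4 CPM with a median of 11.8. Every Ctrl_CE mouse and 6 of the 7 MetR_RT mice were above every Ctrl_RT mouse. The cold raised Dio2 30.5-fold (log2 4.93, SE 0.56, adjusted p = 6.54e-07) and MetR raised it 4.95-fold (log2 2.31, SE 0.51, adjusted p = 0.00161).
With both, MetR_CE mice had 85.1 to 229.9 CPM with a median of 123, 37-fold above Ctrl_RT (log2 5.21, SE 0.57, adjusted p = 1.75e-07). They were 7.48-fold above MetR_RT (log2 2.90, SE 0.51, adjusted p = 0.00172; 1 of 5 members, where 0.602% of genes rose) and did not differ by the test from Ctrl_CE (log2 0.28, SE 0.48, adjusted p = 0.814; none of 5 members called, 2.27% of genes). The interaction was -2.03 (SE 0.70, adjusted p = 0.105); no member of 5 passed it, against 1.65% of genes in either direction. With DESeq2 it was called (adjusted p = 0.039).

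The summed level of brown adipocyte markers moved with iWAT Dio2. Ucp1, Cox7a1 and Cidea were called in the cold (log2 4.08, 1.84 and 1.45) and under MetR (3.61, 2.91 and 1.66). Zic1 was not called (0.47 and 0.53). Ucp1 alone averaged 160 CPM in Ctrl_RT, 2707 CPM in Ctrl_CE, 1962 CPM in MetR_RT and 3838 CPM in MetR_CE. The summed level of Ucp1, Cidea, Zic1 and Cox7a1 was 44 to 719 CPM in Ctrl_RT, 682 to 5255 CPM in Ctrl_CE, 347 to 4533 CPM in MetR_RT and 2777 to 6655 CPM in MetR_CE. The 3 MetR_RT mice with marker sums of 4343 to 4533 CPM had 25.4 to 39.4 CPM of Dio2, and the 4 with sums of 347 to 1594 CPM had 2.08 to 11.8 CPM. In Ctrl_CE, Dio2 ran from 22.3 CPM in the mouse with the lowest sum (682 CPM) to 268.8 CPM in that with the highest (5255 CPM). Macrophage markers went the other way, from 359 to 592 CPM in Ctrl_RT to 59.3 to 157 CPM in MetR_CE. The part of cell composition in the Dio2 values was not tested.

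In eWAT, Dio2 was low but the cold still set a group apart. The 4 Ctrl_RT libraries held 1.01, 0.751, 0.457 and 0.170 CPM. Ctrl_CE libraries held 2.697 to 7.12 CPM with a median of 5.33, above every other eWAT library. The rise was 8.48-fold (log2 3.08, SE 0.62, adjusted p = 0.00534) and rests on 72 reads in all in Ctrl_RT and 875 in Ctrl_CE.
The left-out Ctrl_RT libraries held 0.746, 1.23 and 1.87 CPM, and the left-out MetR_RT library 1.25 CPM. MetR_CE libraries held 0.322 to 2.65 CPM with a median of 0.773, and MetR_RT libraries 0.206 to 1.497 CPM with a median of 0.645. MetR_CE was 4.81-fold below Ctrl_CE (log2 -2.27, SE 0.47, adjusted p = 0.0029), 1 of 3 members of 6 that fell between these groups, where 2.12% of all genes fell. The interaction was -2.58 (SE 0.75, adjusted p = 0.0589) and was called with DESeq2, with edgeR's own filter and with the replicate block. Brown adipocyte markers summed to no more than 22.4 CPM in eWAT. Some other markers moved there with the cold. Skeletal muscle markers summed to 19.4 to 423 CPM in Ctrl_RT and to 5.64 to 33.3 CPM in Ctrl_CE. Of those tested, Acta1 alone was called (log2 -3.35, SE 0.62, adjusted p = 0.0031), beside Mylpf at -0.78, Tnnt3 at 0.05 and Ckm at 0.98. Of the adipocyte markers Adipoq alone was called (log2 -0.68, SE 0.18, adjusted p = 0.0319), beside Cidec at -0.62, Fabp4 at -0.36 and Plin1 at -0.13. The part of these markers in the eWAT values of Dio2, Thrsp and Me1 was not tested.

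**Figure D1:**
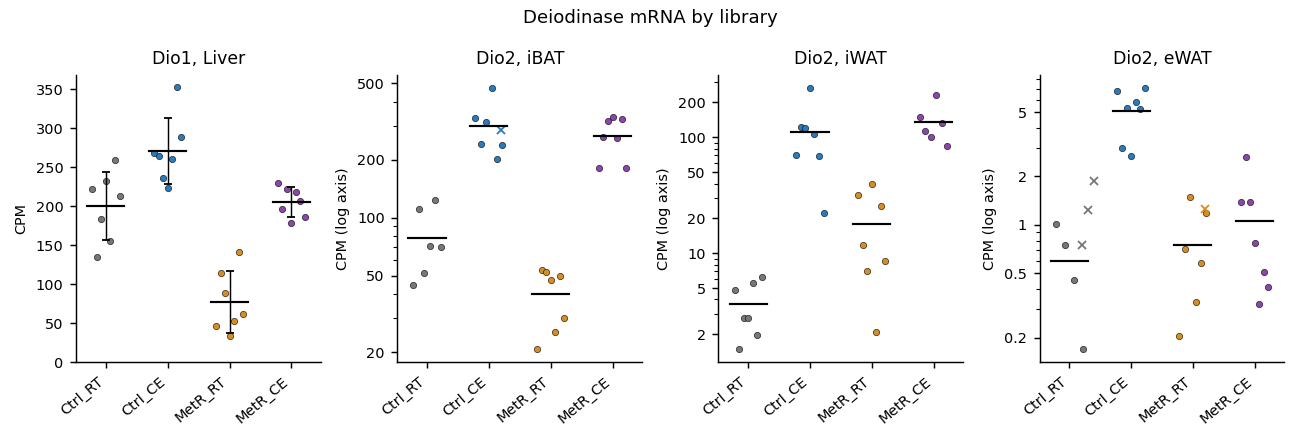
Dio1 in liver (linear axis from 0, bars are SD) and Dio2 in iBAT, iWAT and eWAT (log axes) in CPM, with 1 point per library, crosses for libraries left out and a line at the group mean. Dio1 was lowest in MetR_RT, at 32.8 to 141 CPM, whereas Dio2 was highest in the cold groups of iBAT and iWAT and in Ctrl_CE alone in eWAT.

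The depots answered to different degrees. On the log2 scale and in the joint fit, the cold response of Dio2 in iBAT was 2.98 below that in iWAT (difference -2.98, SE 0.53, adjusted p = 2.1e-05; 8.15% of genes differed), and the MetR response 3.28 below (difference -3.28, SE 0.53, adjusted p = 2.2e-05; 3.67% of genes), with a fall in iBAT and a rise in iWAT. With both treatments the difference was -3.46 (SE 0.53, adjusted p = 5.81e-07; 9.92% of genes). The response to both treatments was 4.44 larger in iWAT than in eWAT (SE 0.85, adjusted p = 4.32e-05; 10.9% of genes). The Ctrl_RT levels that enter these differences are far apart. In Ctrl_CE the iWAT mean of 112 ± 78 CPM (SD, n = 7) was still below the iBAT mean of 299 ± 98.3 CPM (n = 6).

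The receptors moved little. Thra (ENSMUSG00000058756, chr11:98740638-98769006, plus strand) was at 20.1 to 26.2 CPM in the 4 liver groups on average and at 100.2 to 168 CPM in the fat groups. Thrb (ENSMUSG00000021779, chr14:17660261-18038090, plus strand) was between 27.95 and 47.8 CPM on average in every tissue and group. No comparison within a tissue passed both thresholds for either gene. An adjusted p under 0.05 was met in 8 of 24 comparisons for Thra and in 4 of 24 for Thrb, always with a change below 1.5-fold.

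For Thra, the iBAT groups in the cold were lower: Ctrl_RT lay at 97.8 to 143 CPM with a median of 133 and Ctrl_CE at 85.8 to 129 CPM with a median of 101, overlapping, a log2 difference of -0.31 (SE 0.09, adjusted p = 0.00765). MetR_CE against MetR_RT gave -0.28 (SE 0.08, adjusted p = 0.0113) in iBAT and -0.36 (SE 0.09, adjusted p = 0.00361) in liver. In iWAT the diet went with more Thra. There Ctrl_RT lay at 78.2 to 113 CPM with a median of 103 and MetR_RT at 122 to 152 CPM with a median of 128, without overlap, a log2 difference of 0.41 (SE 0.08, adjusted p = 0.000349). In eWAT, MetR_CE was 0.24 above Ctrl_CE (SE 0.06, adjusted p = 0.0128). The other 3 comparisons of Thra past the p threshold were Ctrl_CE in liver (-0.23), MetR_CE in iBAT (-0.23) and MetR_CE in iWAT (0.20), each against Ctrl_RT on the log2 scale.
For Thrb, iBAT again was lower in the cold: Ctrl_RT lay at 36.2 to 57.8 CPM with a median of 48.6 and Ctrl_CE at 27.04 to 42.7 CPM with a median of 35.4, a log2 difference of -0.46 (SE 0.10, adjusted p = 0.000675). MetR_CE gave -0.39 against Ctrl_RT (SE 0.10, adjusted p = 0.00212) and -0.25 against MetR_RT (SE 0.09, adjusted p = 0.0493). In liver the difference in the cold was 0.20 (SE 0.07, adjusted p = 0.0317), with the groups overlapping between 33.1 and 37.9 CPM. The cold response of Thrb in liver exceeded that in iBAT by 0.69 (SE 0.17, adjusted p = 0.00155; 9.31% of genes differed), which passed both thresholds. In iWAT and eWAT Thrb met no adjusted p under 0.05. The left-out Ctrl_RT libraries of eWAT, at 97.3 to 124 CPM of Thra and 15.4 to 23.8 CPM of Thrb, lay below the 4 that were used, at 126 to 156 and 29.9 to 36.9 CPM.

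**Figure D2:**
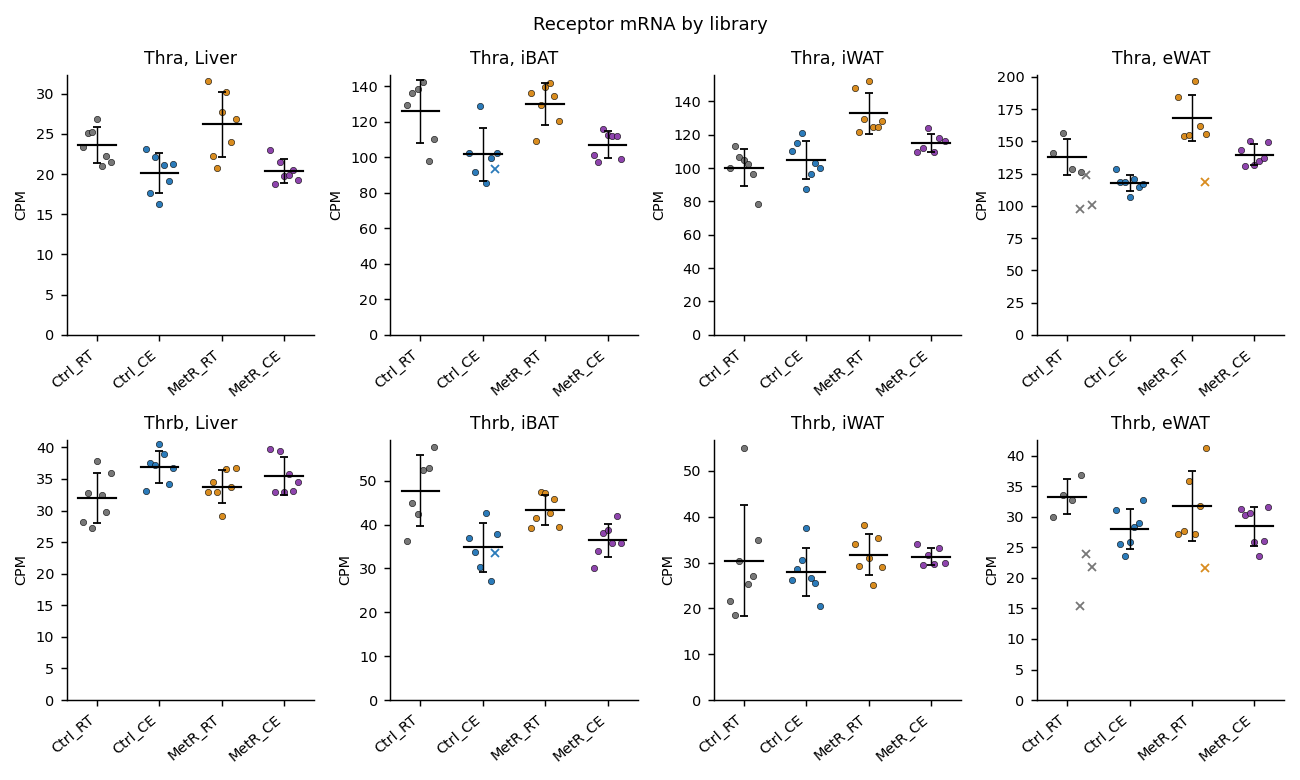
Thra (upper row) and Thrb (lower row) in CPM on linear axes from 0 in the 4 tissues, with 1 point per library, crosses for libraries left out, a line at the mean and SD bars. Group means differ by less than 1.5-fold within every tissue, and Thra in liver sits far below Thra in the fat depots.

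The ratio of the 2 receptor mRNAs differed between tissues. Per kilobase of merged exon (4614 bases for Thra and 7403 for Thrb), Thra and Thrb were level in liver, where the ratio of Thra to Thrb was 1.004 at the median and 0.645 to 1.54 over 28 libraries. In fat Thra led in every library: the median ratio was 4.69 in iBAT (2.96 to 6.82, n = 26), 6.29 in iWAT (3.06 to 9.75, n = 27) and 7.45 in eWAT (5.48 to 11.6, n = 24). Counts are per gene, so splice forms are not told apart, and the merged exons need not match the transcripts present. The ratio is taken within a library and does not depend on scaling between tissues. Other orders do: in Ctrl_RT, Thra was higher in iBAT than in eWAT with TMM over all tissues (141 and 106 CPM) but lower with plain CPM (131 and 140.4). Thrb was higher in liver than in iWAT with TMM over all tissues (40.1 and 26.4 CPM) but lower with plain CPM (30.3 and 33.9). Thra was lowest in liver, at 29.6 and 22.3 CPM, by both scalings.

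The end of Thra overlaps Nr1d1 (REV-ERBα, a repressor of the circadian clock) on the opposite strand, by 1075 bases of gene and 5.70% of the Thra exon bases. The library kit does not mark strand, so reads from that stretch cannot be told apart. Nr1d1 did change: in iBAT it rose under cold by 0.75 (SE 0.09, adjusted p = 7.4e-08) and under MetR by 0.77 (SE 0.09, adjusted p = 2.37e-06) on the log2 scale, where Thra fell by 0.31 and differed by 0.05. In iWAT it rose by 0.80, 1.03 and 1.17 under cold, MetR and both (SE 0.14 to 0.15, adjusted p = 1.03e-06 to 0.000135). Nr1d2, its relative beside Thrb, rose in liver by 0.77, 0.79 and 1.06 in the same order (SE 0.15, adjusted p = 1.5e-06 to 0.000209). Rarb, a retinoic acid receptor also beside Thrb, rose in iWAT by 1.31, 1.09 and 1.65 (SE 0.22, adjusted p = 1.89e-06 to 0.000581), whereas Thrb between them did not pass.

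Thrsp (ENSMUSG00000035686, chr7:97412938-97417730, minus strand) codes for a small nuclear and cytosolic protein of lipogenic cells. By mean Ctrl_RT level its order was iBAT, iWAT, eWAT and liver, at 2951 ± 246, 1952 ± 881, 1197 ± 623 and 190.1 ± 153 CPM (SD, n = 6, 7, 4 and 7), under TMM within a tissue, and the same order stood with TMM over all tissues and with plain CPM. In the joint fit iBAT exceeded iWAT by 0.95 (SE 0.39, adjusted p = 0.0373), iWAT exceeded eWAT by 0.89 (SE 0.45, adjusted p = 0.153, not called) and eWAT exceeded liver by 1.95 on the log2 scale (log2 difference of liver minus eWAT -1.95, SE 0.43, adjusted p = 4.3e-05; 44.9% of genes differed).

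In liver the cold raised Thrsp on the control diet. Ctrl_RT livers held 60.6 to 508 CPM with a median of 133, and Ctrl_CE livers 331 to 1302 CPM with a median of 655. Only Ctrl_RT replicate 5, at 508 CPM, reached into the Ctrl_CE range. The rise was 4.28-fold (log2 2.10, SE 0.52, adjusted p = 0.00252).
MetR_RT livers were widely spread, at 19.5 to 513 CPM with a median of 302, and MetR_CE livers held 282.9 to 519 CPM with a median of 382. Neither group was called against Ctrl_RT (log2 0.52, SE 0.50, adjusted p = 0.536; log2 0.99, SE 0.50, adjusted p = 0.146). Without Ctrl_RT replicate 5 the second difference was called (log2 1.46, adjusted p = 0.0265).

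In iBAT, Thrsp was high and steady. Ctrl_RT held 2576 to 3261 CPM with a median of 2985 and Ctrl_CE 1879 to 2808 CPM with a median of 2370.4, a log2 difference of -0.34 (SE 0.09, adjusted p = 0.00334) that was below 1.5-fold. The cold response in liver exceeded that in iBAT by 2.49 (SE 0.56, adjusted p = 0.000394).
In iWAT, Ctrl_RT held 1061 to 3748 CPM with a median of 1774 and Ctrl_CE 2991 to 4409 CPM with a median of 3831. The rise was 1.97-fold (log2 0.98, SE 0.29, adjusted p = 0.0103). MetR_RT held 1246 to 4008 CPM with a median of 2659 and MetR_CE 698 to 2794 CPM with a median of 2152, every one below every Ctrl_CE library. MetR_CE differed from Ctrl_CE by -0.98 (SE 0.30, adjusted p = 0.0654) and the interaction was -1.40 (SE 0.41, adjusted p = 0.0599), both short of the threshold. The first was called with DESeq2 and with edgeR's own filter (adjusted p = 0.0145 and 0.0439), and the interaction with these and with the replicate block (adjusted p = 0.00982, 0.0371 and 0.0449).

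In eWAT the 4 Ctrl_RT libraries held 914, 2125, 792 and 958 CPM of Thrsp. Ctrl_CE held 1600.2 to 5200.4 CPM with a median of 2993, a log2 difference of 1.43 (SE 0.46, adjusted p = 0.0699) that was not called. It was called with DESeq2 and with edgeR's own filter (adjusted p = 0.00797 and 0.0483). The left-out libraries held 1051, 534 and 2188 CPM in Ctrl_RT and 250.6 CPM in MetR_RT, and with them in the difference was called as well (adjusted p = 0.0403). MetR_RT held 396 to 3647 CPM with a median of 1901, and MetR_CE 506 to 1268 CPM with a median of 732. Every MetR_CE library was below every Ctrl_CE library, by 3.65-fold (log2 -1.87, SE 0.38, adjusted p = 0.00246). Diet and cold interacted, with a log2 interaction of -2.51 (SE 0.60, adjusted p = 0.0225), 1 of 2 members of 6 called down, as were 1.2% of genes. With the 4 left-out libraries in, this call was lost (log2 -2.27, adjusted p = 0.108), as it was without Ctrl_RT replicate 1, 6 or 7 (adjusted p = 0.0671, 0.0540 and 0.0573).

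Me1 (ENSMUSG00000032418, chr9:86581371-86695953, minus strand) was the only member called in all 4 tissues. Its exons share 48.3% of the 50-base runs of the processed pseudogene Gm7049, so some reads of 50 bases could come from either. In Ctrl_RT its mean was 183 ± 101 CPM in liver (SD, n = 7), 1052 ± 303 in iBAT (n = 6), 1750.4 ± 1429 in iWAT (n = 7) and 648 ± 270.5 in eWAT (n = 4). In the joint fit iBAT and iWAT did not differ by the test (log2 -0.38, SE 0.36, adjusted p = 0.428), and liver was the lowest with TMM over all tissues and with plain CPM.

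In liver Me1 rose under every treatment. Ctrl_RT held 122 to 408 CPM with a median of 141, where replicate 5 had 408 CPM and the other 6 livers no more than 169 CPM. Ctrl_CE held 382 to 1449 CPM with a median of 1242, MetR_RT 242.7 to 1066 CPM with a median of 479 and MetR_CE 707 to 882 CPM with a median of 774. Without replicate 5 of Ctrl_RT, all treated livers were above all Ctrl_RT livers. The rises were 5.65-fold in Ctrl_CE (log2 2.50, SE 0.30, adjusted p = 2.73e-07), 2.85-fold in MetR_RT (log2 1.51, SE 0.29, adjusted p = 0.000295) and 4.28-fold in MetR_CE (log2 2.10, SE 0.29, adjusted p = 1.63e-06). The interaction was -1.91 (SE 0.40, adjusted p = 0.0116), 1 of 5 members called down, as were 0.682% of genes. Cold and diet together gave less Me1 than their separate log2 changes sum to. Macrophage markers rose with the cold as well, from 64.6 to 88.9 CPM in Ctrl_RT to 70.5 to 307 CPM in Ctrl_CE, and endothelial markers from 50.2 to 70.4 CPM to 93.1 to 168 CPM, while hepatocyte markers were at 52012 to 83493 CPM and 52081 to 73967 CPM. In MetR_RT livers, where Me1 also rose, macrophage markers were at 33.1 to 61.2 CPM. The part of these cells was not tested.

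In iBAT the diet raised Me1. Ctrl_RT held 679 to 1465 CPM with a median of 964, MetR_RT 1337 to 2304 CPM with a median of 1755 and MetR_CE 1606 to 1912 CPM with a median of 1655. MetR_CE was above every Ctrl_RT library and MetR_RT overlapped its upper end. The rises were 1.74-fold (log2 0.80, SE 0.15, adjusted p = 0.000991) and 1.64-fold (log2 0.71, SE 0.15, adjusted p = 0.000329). In Ctrl_CE, at 984 to 1719 CPM, the log2 difference of 0.40 (SE 0.15, adjusted p = 0.0413) was below 1.5-fold.
In iWAT, Ctrl_RT held 569 to 4825 CPM with a median of 1409, of which replicate 5 was the highest and the next held 1935 CPM. Ctrl_CE held 4525 to 6138 CPM with a median of 4973, a rise of 2.93-fold (log2 1.55, SE 0.38, adjusted p = 0.00261). MetR_RT (1089 to 6349.6 CPM, median 2953) and MetR_CE (1073 to 4170.4 CPM, median 2794) were not called. Without Ctrl_RT replicate 5 they were, with log2 differences of 1.40 (adjusted p = 0.00254) and 1.18 (adjusted p = 0.00635), and so was the interaction, which went from -1.76 (SE 0.54, adjusted p = 0.0685) to -2.26 (adjusted p = 0.0045). With all of Ctrl_RT in, DESeq2, edgeR's own filter and the replicate block also called the interaction (adjusted p = 0.0115, 0.0436 and 0.0417).

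In eWAT, Ctrl_RT held 387, 1027, 569.5 and 609.9 CPM of Me1. Ctrl_CE held 783 to 5963 CPM with a median of 2799, MetR_RT 288.1 to 5042 CPM with a median of 1536 and MetR_CE 368 to 1017 CPM with a median of 687. Ctrl_CE was 4.76-fold above Ctrl_RT (log2 2.25, SE 0.59, adjusted p = 0.0275), and without Ctrl_RT replicate 1, 6 or 7 this was no longer called (adjusted p = 0.109, 0.0655 and 0.0812). MetR_CE was level with Ctrl_RT (log2 0.01, SE 0.53, adjusted p = 0.999) and 4.74-fold below Ctrl_CE (log2 -2.24, SE 0.47, adjusted p = 0.00319). MetR_RT was not called (log2 1.71, SE 0.58, adjusted p = 0.311) and neither was MetR_CE against MetR_RT (log2 -1.70, SE 0.48, adjusted p = 0.111; none of 6 members, 0.112% of genes). The interaction, -3.95 (SE 0.76, adjusted p = 0.00898), was the largest in size of those called. With the left-out libraries in, it was -3.35 (adjusted p = 0.0776): the left-out Ctrl_RT libraries held 435, 324 and 2619.95 CPM, the last from the mouse that was highest in liver and iWAT, and the left-out MetR_RT library 317 CPM.

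**Figure D3:**
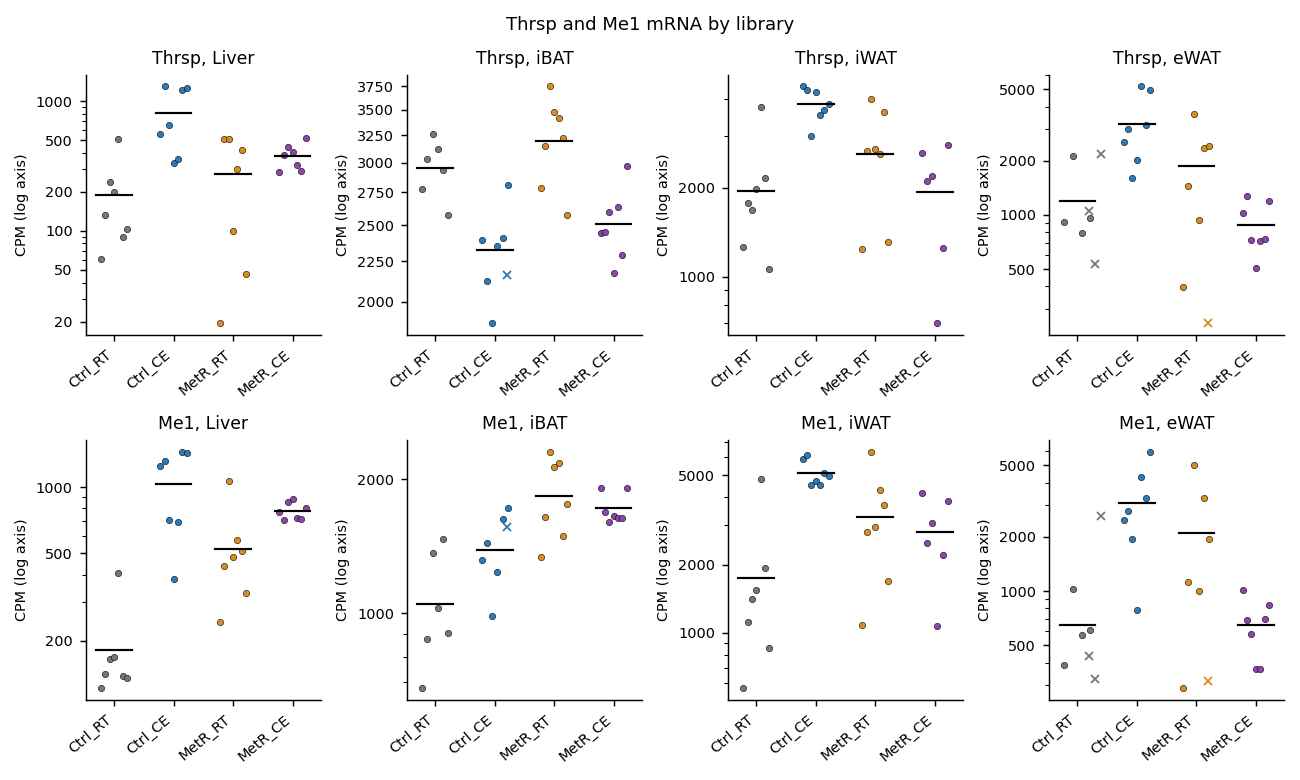
Thrsp (upper row) and Me1 (lower row) in CPM on log axes in the 4 tissues, with 1 point per library, crosses for libraries left out and a line at the group mean. In eWAT both genes are lower in MetR_CE (506 to 1268 and 368 to 1017 CPM) than in Ctrl_CE (1600.2 to 5200.4 and 783 to 5963 CPM), and 1 Ctrl_RT mouse stands above its group in liver and iWAT.

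Between tissues the Me1 response to the cold was larger in liver than in iBAT by 2.15 (SE 0.52, adjusted p = 0.00112) and smaller in iBAT than in eWAT (difference -1.85, SE 0.57, adjusted p = 0.0276; 4.5% of genes differed). The response to both treatments was larger in liver than in iBAT by 1.40 (SE 0.50, adjusted p = 0.0451; 8.65% of genes), than in iWAT by 1.42 (SE 0.51, adjusted p = 0.0329; 13.6%) and than in eWAT by 2.11 (SE 0.53, adjusted p = 0.00358; 5.82%). These 5 calls ended in limma voom with the mouse that tissues share as a block, a fit that changes the method as well, with differences of 2.20, -1.62, 1.51, 1.42 and 2.31 and adjusted p = 0.0889, 0.0887, 0.318, 0.284 and 0.134. The Dio2 level in iWAT over eWAT also lost its call in that fit (log2 2.76, adjusted p = 0.0911), as did the Me1 level of liver below that of eWAT (log2 difference -1.20, adjusted p = 0.199).

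**Figure D4:**
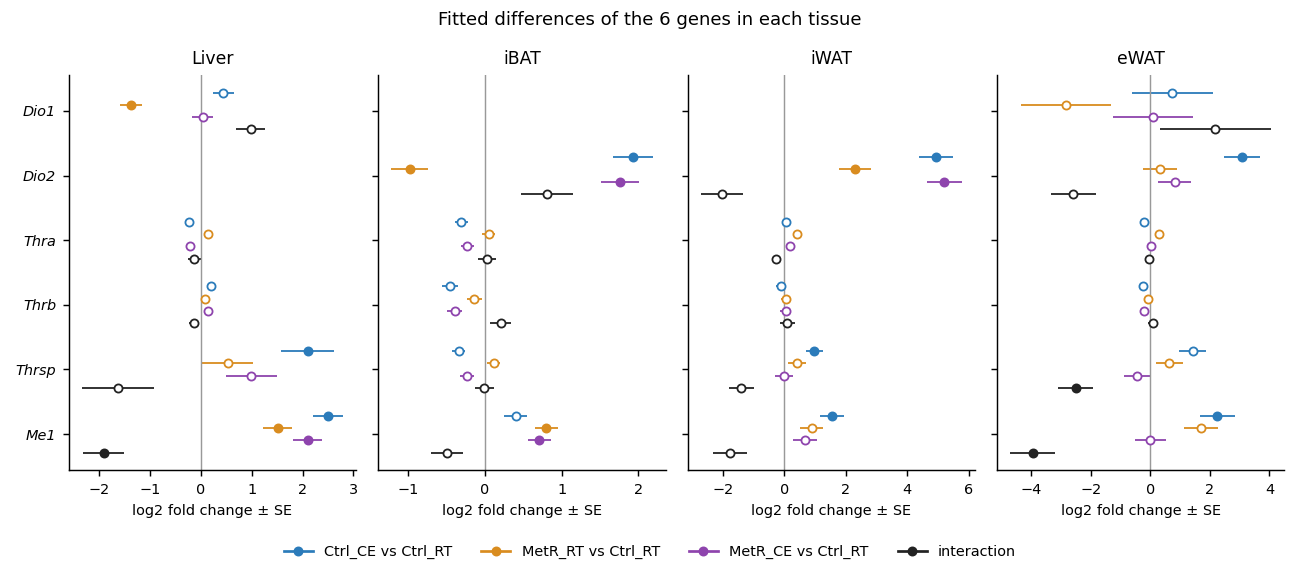
Log2 fold changes with SE bars of the 6 genes in each tissue for Ctrl_CE, MetR_RT and MetR_CE against Ctrl_RT and for the diet by temperature interaction. Filled points were called at an adjusted p under 0.05 and at least 1.5-fold. The receptors sit near 0 throughout, and Dio2 in iWAT reaches 5.21.

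Among 14 transporters and binding proteins of thyroid hormone, all 14 were tested in liver, where 2 rose in the cold (7.28% of all genes rose) and 2 rose and 1 fell under MetR (2.88% and 4.02% of all genes). Slco1a4, an organic anion carrier, rose in liver by 1.84 under MetR (SE 0.34, adjusted p = 0.000182), and Slc3a2, the heavy chain of amino acid carriers, by 1.49 (SE 0.13, adjusted p = 7.57e-10). In iBAT 12 were tested, and in the cold Slc3a2 (log2 1.39) and its partner Slc7a5 (log2 1.26) rose, where 4.98% of all genes rose and 9.73% fell. Alb was called down there (log2 -4.05, SE 1.14, adjusted p = 0.00605) and stood at 38.2 CPM in 1 Ctrl_RT library, with a group median of 0.335 CPM. The part of that library was not tested. In iWAT 3 of 13 rose and 2 fell in the cold, against 5.99% and 9.94% of all genes. Alb was called up in iWAT in the cold (log2 1.01, SE 0.22, adjusted p = 0.000879), with means of 26.2 CPM in Ctrl_RT and 52.9 CPM in Ctrl_CE. Of the other hepatocyte markers, Ttr (3.47) and Cps1 (5.60) were called up in iWAT as well, and Apoa1 (1.31) was not called. The part of hepatocyte transcripts in iWAT was not tested. There the amino acid carrier Slc7a8 fell by 1.59 in the cold and by 1.59 under MetR (SE 0.25, adjusted p = 3.57e-05 and 9.67e-05). In eWAT none of 14 passed in any of the 6 comparisons.

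Of 11 proteins that act on the deiodinases or build selenoproteins, few passed. Usp33, which removes ubiquitin from Dio2, rose in the cold in iBAT by 0.92 (SE 0.08, adjusted p = 1.3e-10), 1 of 10 tested, where 4.98% of all genes rose. In iWAT Usp33 rose in the cold by 0.81 (SE 0.11, adjusted p = 4.24e-06). Wsb1, part of the ligase that puts ubiquitin on Dio2, fell in iWAT by 0.71 in the cold (SE 0.13, adjusted p = 0.000229) and by 0.67 under MetR (SE 0.13, adjusted p = 0.000644), 1 of 11 in each, where 7.36% of all genes fell under MetR. Sephs2, which makes the selenium donor, rose by 0.66 in iWAT in the cold (SE 0.13, adjusted p = 0.000272), so that 2 of 11 rose and 1 fell there, beside the 5.99% and 9.94% of all genes. In eWAT Usp20, a relative of Usp33, rose in the cold by 0.71 (SE 0.10, adjusted p = 0.000488), 1 of 11 against 0.979% of all genes. Dio3, the deiodinase that inactivates the hormone, never exceeded 1.76 CPM, with a median of 0.596 CPM in eWAT and 0 in iBAT, and was not called.

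Of 17 partners of the receptors, all tested in every tissue, 1 rose in liver in the cold, 2 rose and 1 fell in iBAT and in iWAT, and none was called in eWAT in the cold. Of all genes, 7.28% rose in liver. In iBAT 4.98% rose and 9.73% fell, in iWAT 5.99% rose and 9.94% fell, and in eWAT 0.979% rose and 1.44% fell. Ppargc1a, the coactivator PGC-1α, rose in the cold by 1.13 in liver, 2.44 in iBAT and 2.71 in iWAT, and by 1.21 under MetR in iWAT (SE 0.20, 0.21, 0.32 and 0.31; adjusted p = 5.52e-05, 2.9e-10, 1.13e-06 and 0.00508). Hr, a corepressor that is itself a hormone target, went in different directions: it fell by 1.73 in iBAT in the cold (SE 0.23, adjusted p = 7.44e-07), rose by 0.76 in iWAT in the cold (SE 0.26, adjusted p = 0.0289) and rose by 2.04 in eWAT under both treatments (SE 0.34, adjusted p = 0.00187). Ncoa1, a steroid receptor coactivator, rose by 0.75 in iBAT in the cold (SE 0.07, adjusted p = 2.99e-09).

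Of 14 other genes known to answer to thyroid hormone, Hr among them, 5 of 13 tested rose in liver in the cold (7.28% of all genes), led by Fasn (fatty acid synthase, log2 2.15, SE 0.42, adjusted p = 0.000226) and Acaca (acetyl-CoA carboxylase, log2 1.16). Under MetR, Fgf21 rose in liver by 3.05 (SE 0.71, adjusted p = 0.00247), Acaca rose by 0.74 and Bcl3 fell by 0.91, 2 of 13 up and 1 down against 2.88% and 4.02% of all genes. In iBAT 4 of 13 rose and 1 fell in the cold (4.98% and 9.73% of all genes), with Fgf21 at 2.26 and Cpt1a, the gate of fatty acids to mitochondria, at 1.80. In iWAT 6 of 13 rose in the cold and 4 under MetR (5.99% and 4.25% of all genes), led by Ucp1 (log2 4.08, SE 0.75, adjusted p = 0.000163 and log2 3.61, SE 0.73, adjusted p = 0.000683). In eWAT the interaction was called down for 4 and up for 1 of 14 (1.2% and 1.1% of all genes), among them down for Fasn (log2 -3.81, SE 0.82, adjusted p = 0.0146), Acaca (-2.89) and Gpd2 (-2.10) and up for Pck1, of gluconeogenesis and glycerol synthesis (1.92). In the cold on the control diet Pck1 fell there by 1.55 (SE 0.30, adjusted p = 0.00467). Median log2 differences of the list in the cold were 0.76 for iWAT and 1.02 for eWAT, against 0.71 for liver and 0.18 for iBAT.

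Other NADPH sources and Mid1ip1, the paralog of Thrsp, were changed with Me1 in several comparisons. In eWAT in the cold Mid1ip1 rose by 2.11 (SE 0.40, adjusted p = 0.00383) and Pgd, of the pentose phosphate pathway, by 1.30 (SE 0.34, adjusted p = 0.0293), 2 of 6 against 0.979% of all genes, and their interactions were -2.77 (SE 0.51, adjusted p = 0.00797) and -2.05 (SE 0.45, adjusted p = 0.0159). In liver in the cold 4 of 6 rose (7.28% of all genes), among them Pgd by 0.98 and G6pdx, the first enzyme of that pathway, by 0.90. In iBAT under MetR Pgd rose by 0.66 (SE 0.10, adjusted p = 0.00016) and G6pdx by 0.61 (SE 0.10, adjusted p = 0.000186), 2 of 6 against 0.535% of all genes. In iWAT the interaction was called down for Mid1ip1 (-1.54, SE 0.43, adjusted p = 0.0495) and Pgd (-1.31, SE 0.35, adjusted p = 0.0376), 2 of 6 against 1.14% of all genes.

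The labels tie the tissues of a mouse together, so each mouse could be followed relative to the mean of its group. Relations between log2 levels centred on their group were tested by permuting mice within groups. Of 41 relations, 29 had an adjusted p under 0.05 by Pearson's r, among them 24 of the 33 between tissues. Apart from Nr1d1, no gene outside the members was put through this test. The share of all genes that would pass is therefore not known. A mouse high in Me1 in one tissue tended to be high in the others. Over the 6 pairs of tissues Pearson's r was 0.56 to 0.77 and Spearman's rho 0.58 to 0.74, with permutation p of 1e-05, the smallest that 100000 permutations can give, to 0.00322 (adjusted p = 0.000137 to 0.00825, 23 to 27 mice). Without the 2 mice farthest from the median in the first tissue of a pair, r was 0.52 to 0.70. The order of tissues was liver, iBAT, iWAT and eWAT. For pairs of genes within a tissue below, the median was that of Thrsp or Thra. Mice far out in the second tissue or gene alone stayed in.

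Thrsp gave r of 0.49 to 0.72 over the same 6 pairs (permutation, adjusted p = 0.00219 to 0.0319) and 0.34 to 0.57 without 2 mice; rho was 0.35 to 0.61, with adjusted p = 0.0156 to 0.135. Thra, which hardly moved between groups, gave r of 0.45 to 0.68 (permutation, adjusted p = 0.00353 to 0.0475), rho of 0.39 to 0.72 (adjusted p = 0.0018 to 0.112, permutation) and r of 0.42 to 0.71 without 2 mice. Thrb gave r of 0.03 to 0.40 (adjusted p = 0.151 to 0.917, permutation). Dio2 in iBAT and iWAT gave r = 0.13 and rho = -0.01 (permutation, adjusted p = 0.626 and 0.983; r = 0.34 without 2 mice), and in iWAT and eWAT r = -0.40 (permutation, adjusted p = 0.0779).
Within a tissue Thrsp went with Me1: r was 0.91 for iWAT and 0.89 for eWAT, 0.78 for liver and 0.60 for iBAT (permutation, adjusted p = 0.000137 to 0.00602), with rho of 0.88, 0.92, 0.79 and 0.59 and r without 2 mice of 0.88, 0.80, 0.71 and 0.58. Thra and the overlapping Nr1d1 gave r of 0.32, 0.44, 0.55 and 0.34, of which iWAT passed by Pearson's r (permutation, adjusted p = 0.0238), and iBAT and iWAT by rho (0.63 and 0.62, adjusted p = 0.00916 and 0.00733, permutation). Nr1d1 itself gave r of 0.40 to 0.64 between tissues, with rho of 0.33 to 0.57, of which 2 of the 6 pairs passed (permutation, adjusted p = 0.0131 to 0.174). Without 2 mice r was 0.03 for liver and iWAT, 0.27 for liver and iBAT, 0.30 for iWAT and eWAT and 0.34 for the other 2 pairs of fat depots, so these rest in part on those mice, and 0.46 for liver and eWAT. Tissues of 1 mouse share its time of death and handling, and no measure of these enters the test.

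**Figure D5:**
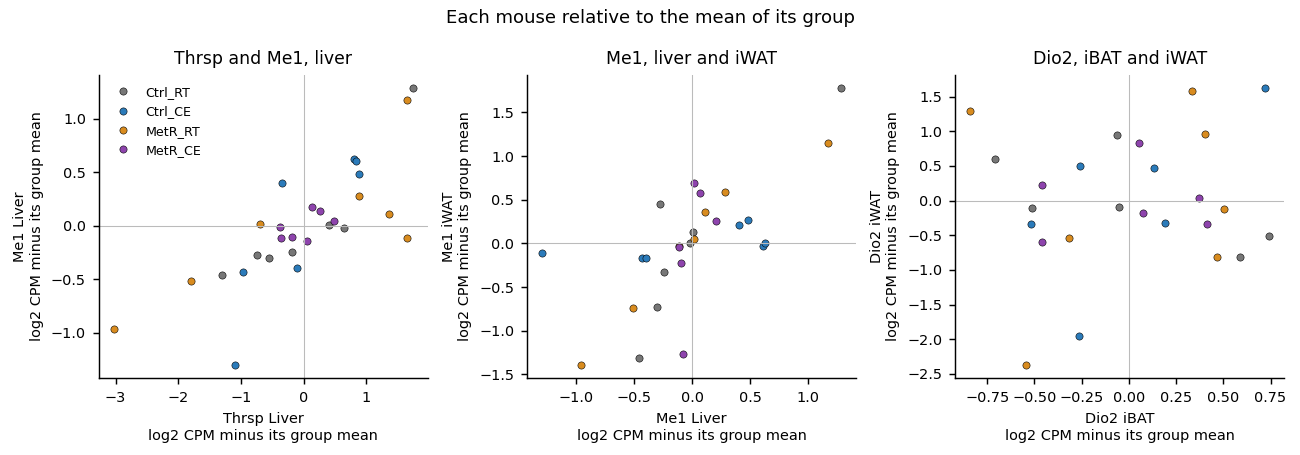
Log2 CPM of each mouse minus its group mean, coloured by group: Thrsp against Me1 in liver (r = 0.78), Me1 in liver against iWAT (r = 0.70) and Dio2 in iBAT against iWAT (r = 0.13). The first 2 panels rise from lower left to upper right, and the third shows no such line.

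The genes whose log2 CPM ran most like a member over the libraries of its leading tissue are given with Pearson's r as a description. All points share the 4 groups of that tissue. Dio1 in liver was most like Agap2 (r = 0.92), Trp53inp2 (0.91) and 4833439L19Rik (0.89) over 28 libraries. Dio2 in iBAT was most like Atf3 (0.94), Gm12925 (0.93) and Tbc1d9 (0.93) over 26 libraries, and in iWAT most like Zdhhc5 (0.97), Hccs (0.97) and Sgk2 (0.97) over 27. Me1 in iWAT was most like its pseudogene Gm7049 (0.99), Sorl1 (0.98) and Pgd (0.98). Thrsp in iBAT was most like Gm35853 (0.89), Polr3g (0.89) and Spire1 (0.88), Thra in eWAT like Abca8a (0.87), Rad21 (0.84) and ENSMUSG00000121096 (0.83), and Thrb in iBAT like Trim56 (0.87), Itpr2 (0.86) and Bach1 (0.85).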

How the data were processed

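RNA-seq libraries of liver, iBAT, iWAT and eWAT were made with a poly(A) kit that does not mark strand (NEBNext Ultra II RNA) and read as pairs of 50 bases. The authors deposited raw counts per gene, which are not normalized, in 3 tables with 110 columns and 56884 genes, of which 51948 carried a symbol. The submitters' processing notes name STAR 2.7.9a, featureCounts 2.0.3, Salmon 1.9.0, MultiQC 1.19, DESeq2 1.46.0 and mm10, and the table names give Salmon. The gene identifiers go with a later annotation than the release the study states.

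Groups were taken from the titles. The members and gene lists were chosen with earlier results of these data known. The 5 libraries that the study left out are not named in the sources used here. They were identified as the set whose mean counts lay nearest to those of the study, with a median difference of 0.251% over 2429 genes in iBAT, against 1.15% for the next of 8 sets, and of 0.151% over 1055 genes in eWAT, against 0.775% for the next of 246. Genes with fewer than 10 counts in a tissue were left out, so 22143 to 27786 genes were tested. A group-means model was fitted per tissue with edgeR 4.0.16 (TMM, quasi-likelihood test) in R 4.3.3, after it had been tested on simulated data. Each p-value was adjusted by Benjamini-Hochberg over all genes, and a call needed an adjusted p under 0.05 and a change of at least 1.5-fold. The model terms and call thresholds follow the study, but edgeR replaces DESeq2, fold changes were not shrunk, and the filter was applied within each tissue. Differences between tissues came from 1 fit over 32143 genes. Intervals of detection (3 counts) cover counting error only. Relations between mice used log2(CPM + 0.5), group means removed, and 100000 permutations within groups. Outside the members, genes of the lists without markers are named from the 3 with the largest change among those called in a tissue and comparison. Nr1d1, Nr1d2 and Dio3 are named in any case. Genes of the marker lists are named apart from this rule, whether called or not. The genes most like a member are named by their r. Foxj1 was chosen after its values were seen. The values of 1 list gene are not reported here. Alternatives were DESeq2 1.42.0, other scaling and filters, all libraries, groups by tag, the replicate number or the mouse (limma 3.58.1) as a block, fits of 2 groups, and single libraries left out. Gene positions are from GENCODE vM21 on GRCm38 and promoters from RefSeq. Columns with fold changes and p-values of the authors were not used. No protein sequence was used here.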

Additional observations from a re-analysis of the deposited data

Results flagged for a closer look

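Of 84 groups of 4 to 7 libraries, 9 had a highest library farther from the rest than the 95% limit of Dixon's test. For independent groups of normal values chance gives about 1 group in 20. CPM were taken without logs and the tissues share mice, so that rate is no yardstick here. The mouse of Ctrl_RT replicate 5 accounts for 4 of the 9 flags, with 408 CPM of Me1 and 508 CPM of Thrsp in liver and 4825 CPM of Me1 and 3748 CPM of Thrsp in iWAT. The next highest libraries of those groups held 169, 237, 1935 and 2168 CPM. The same mouse was left out of eWAT by the study and has no iBAT library. Results with and without it are given beside the members.

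The others were Me1 in liver MetR_RT replicate 3 at 1066 CPM, Dio2 in iWAT Ctrl_CE replicate 4 at 268.8 CPM, Thrsp in eWAT Ctrl_RT replicate 3 at 2125 CPM, Dio1 in eWAT Ctrl_RT replicate 6 at 3.23 CPM and Dio1 in eWAT MetR_RT replicate 5 at 0.540 CPM.

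Diet changed the response to cold by the test of the interaction for Me1 in liver (log2 -1.91), Me1 in eWAT (-3.95) and Thrsp in eWAT (-2.51). The eWAT calls of Me1 and Thrsp were lost with the left-out libraries in. That of Thrsp was also lost without some single Ctrl_RT libraries. Tissues differed in their response by edgeR in 11 cases, of which the 5 of Me1 were not called in limma voom with the mouse as a block. For Dio2, iBAT minus iWAT gave -2.98 in the cold, -3.28 under MetR and -3.46 under both, and iWAT minus eWAT gave 4.44 under both. In the cold, liver minus iBAT gave 0.69 for Thrb, 2.49 for Thrsp and 2.15 for Me1, and iBAT minus eWAT gave -1.85 for Me1. Under both treatments Me1 gave 1.40 for liver minus iBAT, 1.42 for liver minus iWAT and 2.11 for liver minus eWAT.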

How the results depend on the processing

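Counts of members called did not move with RLE factors or without the filter on low counts in any of the 24 comparisons. DESeq2 called more: 3 in the iWAT interaction (0 with edgeR), 2 in iWAT MetR_RT (1), 2 in the liver interaction (1), 1 in iWAT MetR_CE against Ctrl_CE (0) and 1 in eWAT MetR_CE against MetR_RT (0). edgeR's own filter gave 2 in the iWAT interaction, 2 in the liver interaction and 1 in iWAT MetR_CE against Ctrl_CE. With only the 2 groups compared in the fit, counts were 2 in iWAT MetR_CE against Ctrl_CE, 1 in liver MetR_CE against Ctrl_CE (0) and 2 in liver MetR_CE against Ctrl_RT (1). Groups by tag gave 1 in iBAT MetR_RT (2). All libraries gave 0 in the eWAT interaction (2), and 3 and 2 differences between tissues under both treatments and under MetR (5 and 1); in limma voom with the mouse as a block, which changes method and block together, the former was 2. Without 1 eWAT Ctrl_RT library, counts were 1 to 2 in the cold and 1 to 2 for the interaction. Without Ctrl_RT replicate 5, an alternative chosen after its values were seen, counts were 2 in liver MetR_CE and 2, 2, 2 and 1 in iWAT MetR_RT, MetR_CE, the interaction and MetR_CE against Ctrl_CE.

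Replicate numbers were shared by groups without evidence that they pair the mice: 53 of 147 same-numbered pairs had a correlation over 0.1 and 18 of 105 libraries correlated best with their own number. With the number as a replicate block, 2 members passed the liver interaction and 2 the iWAT interaction, and no other count moved by over 1.5 times.

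Signs turned for values that were not called, besides Dio2 in iBAT MetR_RT by tag (0.26). By tag, iBAT gave -0.23 and 0.026 for the interaction and MetR_CE against Ctrl_CE of Dio2, -0.023 for Thra MetR_RT and 0.0087 for the Thrsp interaction. With all libraries, eWAT gave -0.15 for Dio1, -0.36 for Me1 and 0.062 for Thrb in MetR_CE, -0.11 for Dio2 and 0.14 for Thrb in MetR_RT, 0.028 for Thrb in Ctrl_CE and -0.10 for the Thrb interaction, and iBAT 0.0083 for the Thrsp interaction. With the block, eWAT gave -0.31 for Dio1 in MetR_CE, 0.047 for Thrb in MetR_RT and -0.025 for its interaction. Thrb in eWAT MetR_CE against Ctrl_CE gave -0.00046 with DESeq2 and -0.00017 with RLE factors. Thrsp in iWAT MetR_CE gave 0.022 with 2 groups and 0.23 without replicate 5, and Dio1 in liver MetR_CE gave -0.0087 without it. Over the fits that each left out 1 eWAT Ctrl_RT library, Dio1 ran from -0.32 to 5.75 in MetR_CE, from -3.23 to 2.83 in MetR_RT and from -3.46 to 2.59 for the interaction, and MetR_CE ran from -0.18 to 0.32 for Me1 and from -0.026 to 0.088 for Thra. The causes were not tested. With 4 libraries in eWAT Ctrl_RT and few Dio1 reads in fat, small differences there were not detectable at this depth.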
